A study of Mus musculus with 6 samples.

Results

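The genes described here encode the enzymes and effector proteins of microRNA silencing: the RNases Drosha and Dicer (gene Dicer1), the Argonaute proteins Ago1 to Ago4, the GW182 family members Tnrc6a, Tnrc6b and Tnrc6c, and the RNA helicase Mov10. They were chosen by name, as the array rows whose annotation gives exactly 1 of these symbols. The choice was made with earlier results of these data known, so counts among these genes are not independent of those results. All 10 genes were found, on 11 rows, among 19935 genes measured in the series. Ago2 lay on 2 rows, which were averaged, and each other gene on 1.

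CD4 T cells, which the labels call resting, were sorted from mouse lymph nodes, and their total RNA was measured on 6 Affymetrix MoGene 1.0 ST arrays without any treatment. The 3 Dicer WT samples came from Cre-negative animals and the 3 Dicer KO samples from animals carrying Cre under control of the Cd4 promoter, and animals of both genotypes had floxed Dicer alleles (Dicer lox/lox). The series calls the 3 samples of a genotype biological replicates. Strain, age, sex and whether a sample pools animals were not given in the sources used here. Cd4-Cre becomes active while T cells develop in the thymus, so a cut made then comes before the cells reach the lymph node. The share of cells with the gene cut was not given in the sources used here.

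MicroRNAs are made in steps. Drosha, in the nuclear Microprocessor complex, releases a hairpin from the primary transcript, and Dicer cuts the loop off that hairpin in the cytoplasm. An Argonaute protein keeps 1 strand of the resulting duplex as its guide, and GW182 proteins bound to Argonaute recruit the enzymes that shorten the poly(A) tail and remove the cap of the target messenger RNA. In T cells, microRNAs made this way restrain effector differentiation and tune receptor signalling, and cells without Dicer lack most of them. The hairpin of Mir155, a microRNA induced in activated T cells, shows where the enzymes act. Its sequence is from RefSeq (GRCm38.p6, chr16:84714140-84714204, plus strand), and capitals mark the mature strands, whose ends near the hairpin's base are made by Drosha and whose ends at the loop are made by Dicer.
Mir155 hairpin: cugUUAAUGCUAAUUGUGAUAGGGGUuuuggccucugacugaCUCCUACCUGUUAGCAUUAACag

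Each value below is a deposited log value, read as log2, relative to the row's own median across the 6 arrays. Such centred values compare arrays for 1 gene and hold no expression level, so the genes cannot be ranked by abundance. The fineness of the stored numbers gave a coarse level class in its place: 7 of the 10 genes fell in the class whose rows lie at 8 or more on the log scale before centring, and Drosha, Ago3 and Ago4 did not. By the same class, 10 of 11 T cell marker genes were in the higher class. The counts were 1 of 2 for CD8, 0 of 14 for B cell and 1 of 14 for myeloid markers. They were 0 of 6 for NK cell markers and 1 of 7 for stromal and endothelial markers. Differences were tested with limma over all genes, and a gene was called when its Benjamini-Hochberg adjusted p was under 0.05. Every adjusted p below is from that fit unless another test is named.

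Mov10, Ago2, Drosha and Tnrc6c were higher in Dicer KO, and none of the 10 genes was called lower. All 10 differences were positive, where 9016 of all 19935 genes had positive ones. The 10 genes had a median difference of 0.37 on the log2 scale, against -0.01 over all genes. Of all genes tested, 8.73% were called in either direction and 5.94% were called higher, where 4 of the 10 genes were called higher. For 7 of the 10 genes every Dicer KO array was above every Dicer WT array, and 13.5% of all genes were non-overlapping in that direction. In the higher level class, which holds 7 of the 10 genes, 21.1% of 3191 genes were called higher, and the median difference was 0.12. Of these 3191 genes, 2209 had positive differences, and for 1215 every Dicer KO array was above every Dicer WT array. That class is not independent of the genotype difference, since a row needs a high value on every array to enter it.

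**Figure D1:**
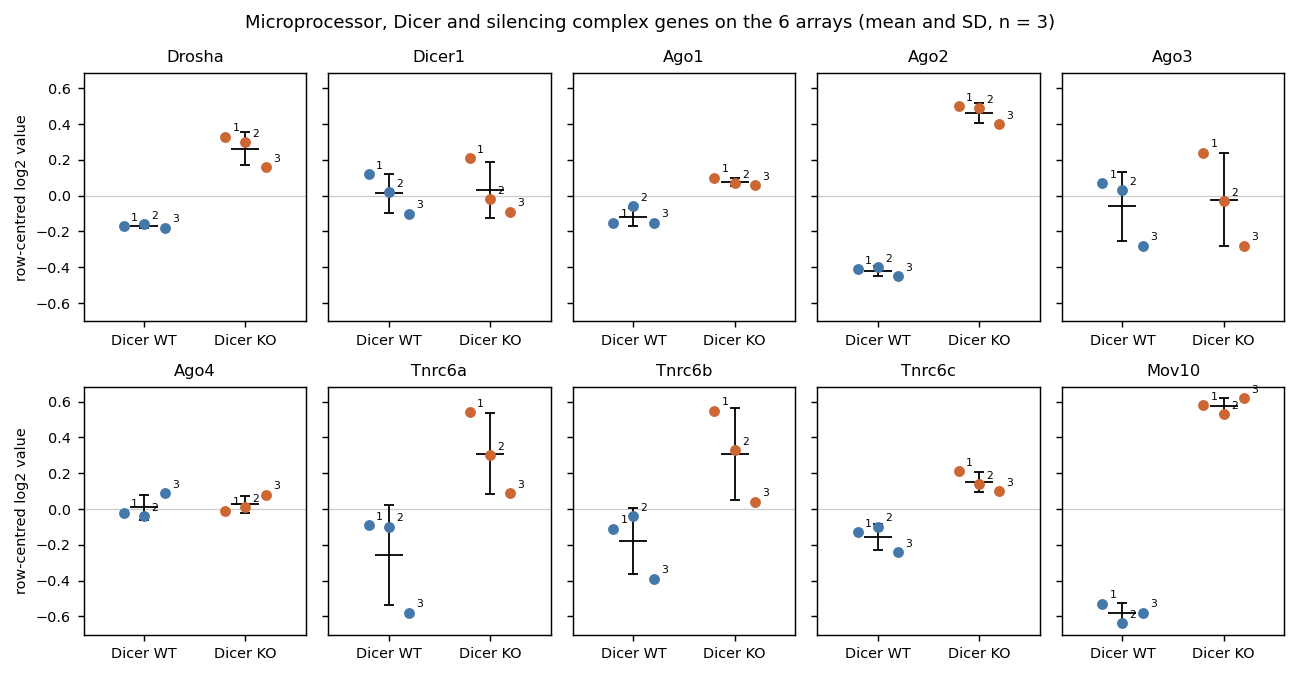
Row-centred log2 value (vertical axis) of each of the 10 genes on the 3 Dicer WT arrays (blue) and the 3 Dicer KO arrays (orange), numbered as in the labels, with mean and SD. The genotypes lie far apart for Mov10 and Ago2, apart for Drosha, Ago1 and the Tnrc6 genes, and on top of each other for Dicer1, Ago3 and Ago4.

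Dicer1, the targeted gene, showed no difference that its row could detect. Its values were 0.12, 0.02 and -0.10 in Dicer WT and 0.21, -0.02 and -0.09 in Dicer KO, so the genotypes overlapped. Dicer KO minus Dicer WT was 0.02 on the log2 scale with a 95% interval of -0.20 to 0.24 (adjusted p = 0.949, n = 3 per genotype), which corresponds to 0.871-fold to 1.18-fold. Which exons the probes of the row cover, and which exons the deletion removes, were not given in the sources used here. Without these exons and the share of cells with the gene cut, the row is no check of the labels. Why it showed no difference was not tested.

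Drosha, the nuclear RNase that acts before Dicer, was 1.35-fold higher in Dicer KO. It read -0.17, -0.16 and -0.18 on the Dicer WT arrays and 0.33, 0.30 and 0.16 on the Dicer KO arrays. The Dicer WT arrays lay within a narrow band, and every Dicer KO array was above it. The log2 difference was 0.43 ± 0.06 (SE, adjusted p = 0.00646), and the call held when any 1 array was left out (adjusted p 0.00734 to 0.0369). Within each array, Drosha relative to Dicer1 was -0.29, -0.18 and -0.09 in Dicer WT and 0.12, 0.32 and 0.24 in Dicer KO. The genotypes did not overlap in this ratio, which gave the smallest two-sided p that an exact permutation test of 3 against 3 arrays allows (p = 0.1; 0.25 adjusted over the 10 pairs of related genes compared).

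Ago2, the only mammalian Argonaute with strong cleavage activity towards fully matched targets, was 1.84-fold higher in Dicer KO (95% interval 1.7 to 2). Its values were -0.41, -0.40 and -0.45 on the Dicer WT arrays and 0.50, 0.49 and 0.40 on the Dicer KO arrays. The gap between genotypes was many times the spread within either, at a log2 difference of 0.88 ± 0.05 (SE, adjusted p = 0.000471). By p-value Ago2 stood at rank 18 of all genes. Its 2 rows gave differences of 0.89 and 0.88. Leaving out any 1 array kept the call (adjusted p 0.00113 to 0.0067).

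None of the other Argonaute genes was called. Ago1, which represses targets mainly without cleavage, read -0.15, -0.06 and -0.15 in Dicer WT and 0.10, 0.07 and 0.06 in Dicer KO. Every Dicer KO array was above every Dicer WT array, but the difference was 0.19 ± 0.05 and its adjusted p of 0.0599 missed the threshold. Ago3 read 0.07, 0.03 and -0.28 in Dicer WT and 0.24, -0.03 and -0.28 in Dicer KO. Its difference was 0.04 with an interval of -0.31 to 0.38 (adjusted p = 0.94), since the arrays within a genotype were further apart than the genotypes. Ago4 read -0.02, -0.04 and 0.09 in Dicer WT and -0.01, 0.01 and 0.08 in Dicer KO, a difference of 0.02 with a narrower interval of -0.12 to 0.15 (adjusted p = 0.926). Ago3, Ago1 and Ago4 are direct neighbours in the RefSeq gene order, whereas Ago2 has the neighbours Chrac1 and Ptk2.

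Ratios within an array compare the Argonaute genes directly. Ago2 relative to Ago1 was -0.26, -0.34 and -0.30 on the Dicer WT arrays and 0.40, 0.43 and 0.34 on the Dicer KO arrays, a shift of 0.69. The shifts were 0.85 relative to Ago3 and 0.87 relative to Ago4, and the genotypes overlapped in none of these 3 ratios. Each gave the smallest exact permutation p possible with 3 against 3 arrays (p = 0.1; 0.25 adjusted over the 10 pairs), so the threshold of 0.05 is out of reach for any such ratio. Ratios among Ago1, Ago3 and Ago4 overlapped between genotypes, with shifts of 0.02 to 0.18 (exact permutation p 0.2 to 0.9). The shift of Ago1 relative to Ago3 was 0.16 with all arrays; it came to 0.03 when Dicer KO 3 was dropped and to 0.28 when Dicer KO 1 was, while dropping Dicer WT 1 gave 0.07 and dropping Dicer WT 3 gave 0.26.

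**Figure D2:**
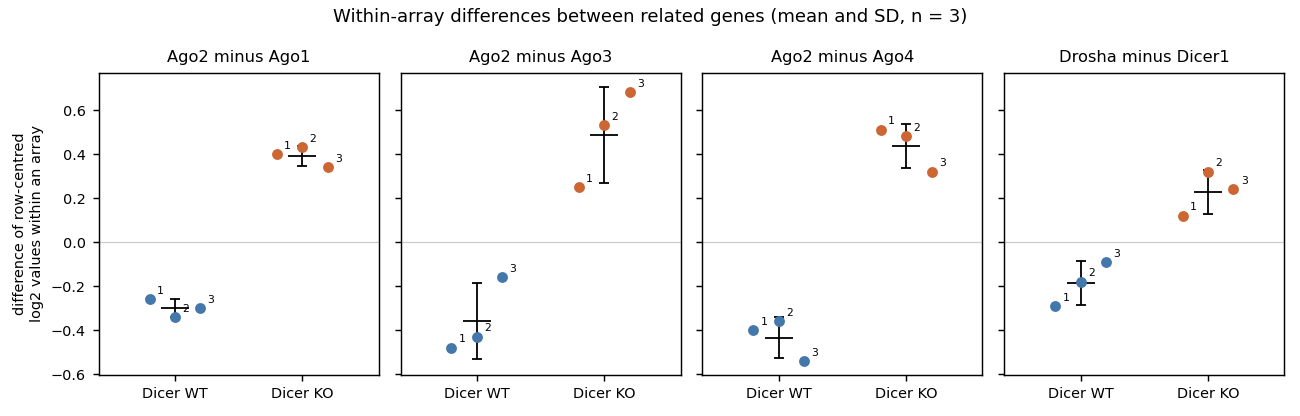
Difference between the row-centred log2 values of related genes within an array (vertical axis), for the 3 Dicer WT arrays (blue) and the 3 Dicer KO arrays (orange), with mean and SD. Ago2 lies below the other Argonaute genes relative to their row medians on all Dicer WT arrays and above them on all Dicer KO arrays, and Drosha does the same relative to Dicer1.

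Tnrc6a, Tnrc6b and Tnrc6c encode the GW182 scaffolds that join Argonaute to the deadenylases. Only Tnrc6c was called, with values of -0.13, -0.10 and -0.24 in Dicer WT, values of 0.21, 0.14 and 0.10 in Dicer KO, and a 1.24-fold difference (log2 0.31 ± 0.06 SE, adjusted p = 0.0211). Leaving out Dicer WT 1 ended its call (adjusted p = 0.0697), as did leaving out Dicer KO 1 (0.0648) or Dicer KO 2 (0.084). Tnrc6a had a larger difference of 0.56 but a wider error of 0.16, reading -0.09, -0.10 and -0.58 in Dicer WT and 0.54, 0.30 and 0.09 in Dicer KO (adjusted p = 0.083). Tnrc6b read -0.11, -0.04 and -0.39 in Dicer WT and 0.55, 0.33 and 0.04 in Dicer KO, a difference of 0.49 ± 0.14 (adjusted p = 0.0877). No Dicer KO array of any of the 3 genes reached down to a Dicer WT array. Ratios among the Tnrc6 genes overlapped between genotypes and shifted by 0.07 to 0.25 (exact permutation p 0.3 to 0.4), so the single call among them does not show that Tnrc6c differs from its relatives.

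Tnrc6a and Tnrc6b were lowest on array 3 in both genotypes, as were other genes of the group. Array 3 was the lowest of its genotype in both genotypes for 7 of the 10 genes (Dicer1, Drosha, Ago2, Ago3, Tnrc6a, Tnrc6b and Tnrc6c), against 15.7% of all genes and 30.2% of genes in the higher level class. On the second principal component of all genes, with 21.2% of the variance, Dicer WT 3 and Dicer KO 3 stood furthest to one side, at 14.1 and 10.5. Without both arrays numbered 3, Tnrc6a differed by 0.51 (adjusted p = 0.0269) and Tnrc6b by 0.51 (adjusted p = 0.0239), so both passed the threshold. What sets these arrays apart was not tested.

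Mov10, a helicase that associates with Argonaute complexes and is also induced by interferon, had the largest difference of the 10 genes and stood at rank 3 of all genes by p-value. It read -0.53, -0.64 and -0.58 on the Dicer WT arrays and 0.58, 0.53 and 0.62 on the Dicer KO arrays. It was 2.24-fold higher in Dicer KO (95% interval 2.05 to 2.44, log2 difference 1.16 ± 0.05 SE, adjusted p = 0.000273). The lowest difference with any 1 array left out was 1.13, and every one of these 6 fits called the gene.

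**Figure D3:**
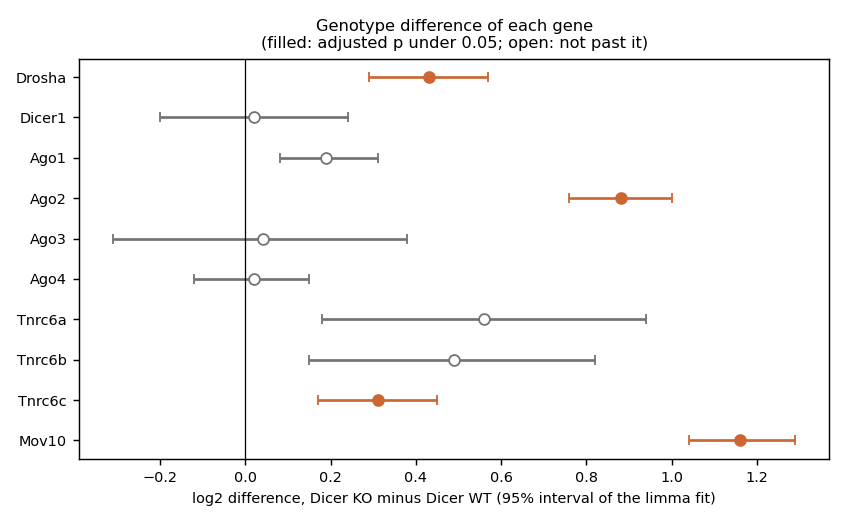
Log2 difference between Dicer KO and Dicer WT, positive where Dicer KO is higher (horizontal axis), with the 95% interval of the limma fit for each gene, filled where the adjusted p is under 0.05. Mov10 at 1.16 and Ago2 at 0.88 lie furthest to the right, and the widest intervals are those of Tnrc6a, Ago3 and Tnrc6b.

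Interferon-stimulated genes, among which Mov10 is often counted, were higher in the same cells. Of 39 measured genes on a list without Mov10, 25 (64.1%) were called higher and 0 lower, against 5.94% and 2.79% of all genes. The median difference was 0.80. The list was chosen with earlier results of these data known, so its share is not independent of them. Gbp3 (1.74 ± 0.09, adjusted p = 0.000273) and Iigp1 (3.11 ± 0.21, adjusted p = 0.000799) encode GTPases of cell-autonomous defence, Zbp1 (1.43 ± 0.10, adjusted p = 0.000939) a nucleic acid sensor, and Ifitm3 (1.71 ± 0.13, adjusted p = 0.000965) a membrane protein that blocks viral entry. Leaving out Dicer WT 1 reduced the calls to 14, and leaving out Dicer KO 2 reduced them to 15. The list median was -0.44, -0.74 and -0.27 on the 3 Dicer WT arrays, in the order of their numbers, and 0.54, 0.34 and 0.25 on those of Dicer KO. Mov10 and the list were both lowest on Dicer WT 2, but among the Dicer KO arrays the list was highest on Dicer KO 1 and Mov10 on Dicer KO 3.

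B cell markers differed between arrays. All 14 measured markers had positive differences, where 9016 of all 19935 genes did. Bank1 alone was called higher, a share of 7.14% against 5.94% of all genes. The median of the 14 markers was -0.59, 0.02 and -0.30 on the Dicer WT arrays and 0.06 to 0.09 on the Dicer KO arrays. None of these markers was in the higher level class. With Dicer WT 1 and Dicer WT 3 left out, those with the lowest B cell medians, the differences were 1.22 for Mov10, 0.86 for Ago2, 0.42 for Drosha and 0.25 for Tnrc6c. Dicer WT 2 is then the lone control array and all residual spread comes from the Dicer KO arrays, so these are values without a test. Of 11 T cell markers, 3 were called higher and 1 lower: Cd4 (0.67 ± 0.07, adjusted p = 0.00328), Cd2 (0.57) and Thy1 (0.44) were higher and Cd5 (-0.44) was lower in Dicer KO. These shares of 27.3% and 9.09% compare with 5.94% and 2.79% of all genes. In the higher level class, which holds 10 of the 11, the shares were 21.1% and 4.39%. Lyz2 (0.69) was the 1 called of 14 myeloid markers, of which 10 had negative and 4 positive differences (median -0.03). Pecam1 (0.75) was the 1 called of 7 stromal and endothelial markers, of which 3 had negative and 4 positive differences (median 0.0022). Both were higher in Dicer KO, and the called shares of 7.14% and 14.3% compare with 5.94% of all genes. Of 2 CD8 markers (-0.26 and -0.09) and 6 NK cell markers (-0.10 to 0.87, median 0.06), 0 were called, where 8.73% of all genes were. These markers other than Cd4 were named after their values were seen, and their part in the results above was not tested. The sort marker Cd44, a marker of antigen-experienced T cells, was not called (0.28 ± 0.14, adjusted p = 0.304). In bulk samples, a different mix of cells and a different amount of transcript per cell cannot be told apart.

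No listed cofactor of Drosha or Dicer was called. Of 20 genes for processing partners, nuclear export and tailing of microRNA precursors, 0 passed in either direction in the limma fit. A count of 0 is close to the 8.73% of all genes that passed. It is below the shares of the higher level class, 21.1% higher and 4.39% lower, to which 12 of the 20 belong. Whether the list differs from either background was not tested. Of the differences 13 were positive, and the median was 0.05. Dgcr8, the RNA-binding partner of Drosha, differed by 0.05 (adjusted p = 0.723), and Tarbp2, a partner of Dicer, by -0.06 (adjusted p = 0.717). The export receptor Xpo5 differed by 0.14 (adjusted p = 0.301). These 3 genes were chosen after their values were seen. By lowest p, the helicase Ddx5 (0.56 ± 0.17, adjusted p = 0.0888) and the terminal uridylyltransferase Tut7 (0.31 ± 0.09, adjusted p = 0.0897) came nearest to the threshold. At an unadjusted p under 0.05, 7 of the 20 genes would pass, where 21.5% of all genes do.

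Downstream of GW182, 4 of 34 genes for deadenylation, decapping and translational repression were called higher and 1 lower, with a median of 0.16. These shares of 11.8% and 2.94% compare with 5.94% and 2.79% of all genes, and with 21.1% and 4.39% of genes in the higher level class, to which 24 of the 34 belong, so they do not set the list apart. Dcp2, the catalytic decapping enzyme, was higher by 0.45 ± 0.06 (adjusted p = 0.00493), and Cnot1, the scaffold of the CCR4-NOT deadenylase, by 0.42 ± 0.08 (adjusted p = 0.0175). Ddx6, the helicase bound by CCR4-NOT in repression (0.47 ± 0.11, adjusted p = 0.043), and the deadenylase subunit Cnot6l (0.43 ± 0.10, adjusted p = 0.0458) also rose. Dcp1b, a cofactor of decapping, fell by 0.27 ± 0.05 (adjusted p = 0.0192), with arrays at 0.21, 0.17 and 0.10 in Dicer WT and -0.10, -0.12 and -0.11 in Dicer KO. A single gene of the list was called without Dicer WT 1 or without Dicer KO 2, and 2 were called without Dicer WT 2 or without Dicer KO 1.

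Argonaute proteins take up their RNA with the help of the HSP70 and HSP90 chaperones. Of 6 measured genes of this machinery, the HSP40 cochaperone Dnaja2 (0.43 ± 0.06, adjusted p = 0.00656) and the HSP90 cochaperone Fkbp5, itself a glucocorticoid-responsive gene (0.60 ± 0.12, adjusted p = 0.0234), rose and 0 fell. The share called higher, 33.3%, compares with 5.94% of all genes. It compares with 21.1% of the higher level class, which held 5 of the 6 genes but not Fkbp5. Whether the list differs from either background was not tested. The calls numbered 2 without Dicer WT 3 or Dicer KO 1 and 1 without any of the other arrays. Of 4 germline relatives of the Argonaute genes, none of them in the higher level class, 0 were called in the limma fit and 0 had an unadjusted p under 0.05. With so few genes, a count of 0 is near the 8.73% of all genes. Piwil2 (0.07) and Piwil1 (-0.07) had the lowest p-values.

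**Figure D4:**
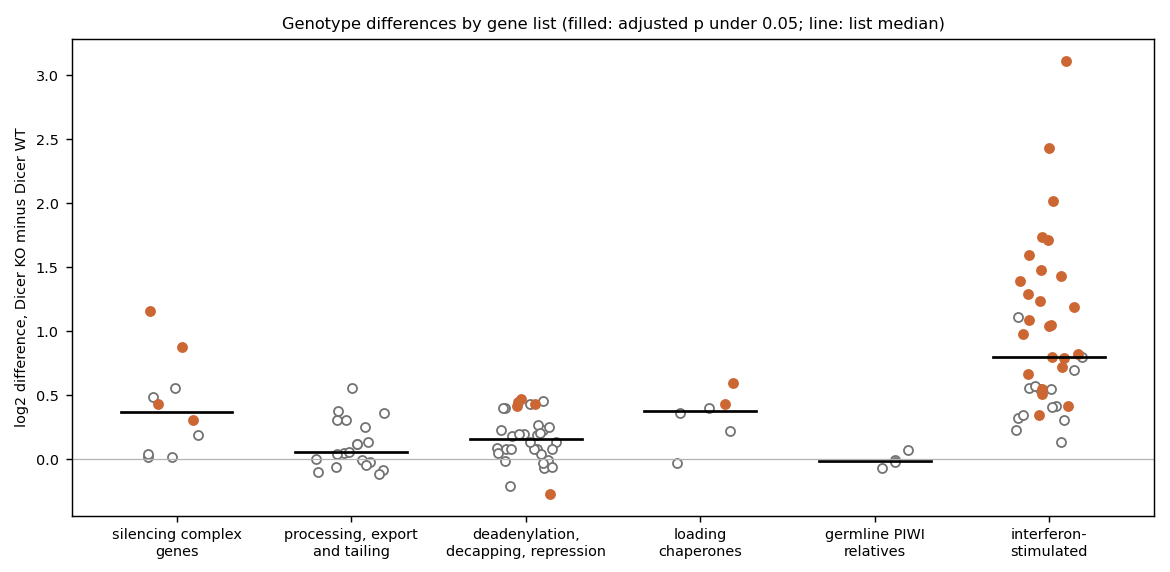
Log2 difference between Dicer KO and Dicer WT, positive where Dicer KO is higher (vertical axis), of every measured gene on 6 lists, each point 1 gene, filled where the adjusted p is under 0.05, with the list median as a line. The medians are 0.37 for the silencing complex genes, 0.05 for processing partners, 0.16 for deadenylation and decapping, 0.38 for chaperones, -0.01 for PIWI relatives and 0.80 for interferon-stimulated genes.

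For each called gene, the 3 genes with the closest profile were found by the root mean square difference of centred values over the 6 arrays. Mov10 was nearest to Ywhae (0.051), Vamp3 (0.062) and Tnfsf8 (0.075). Ago2 was nearest to Pdia3 (0.058), Etnk1 (0.059) and Tug1 (0.063), and Drosha to Klhl11 (0.019), Prrc2b (0.033) and Lmbrd1 (0.035). Tnrc6c was nearest to Ltn1 (0.021), whose profile is a mean of 16 rows, Srsf4 (0.022) and Ccdc6 (0.027).

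Promoter sequences are shown for Mov10, Drosha and Tnrc6c, the called genes for which one was available. Whether interferon has a part in their rise was not tested. The 250 bases before the start of transcription were taken from RefSeq (GRCm38.p6), which gave 12 windows for 9 of the 10 genes, Ago2 not among them. Capitals mark CCAAT boxes (the letters CCAAT on either strand). The first of the Mov10 windows lies at chr3:104818564-104818813 on the minus strand, the Drosha window at chr15:12824565-12824814 on the plus strand, and the Tnrc6c window at chr11:117654039-117654288 on the plus strand.
Mov10: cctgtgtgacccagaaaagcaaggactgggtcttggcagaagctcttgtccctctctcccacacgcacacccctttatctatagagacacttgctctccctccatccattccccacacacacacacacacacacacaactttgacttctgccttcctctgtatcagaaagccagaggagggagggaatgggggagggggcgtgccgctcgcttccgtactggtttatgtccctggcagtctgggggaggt
Drosha: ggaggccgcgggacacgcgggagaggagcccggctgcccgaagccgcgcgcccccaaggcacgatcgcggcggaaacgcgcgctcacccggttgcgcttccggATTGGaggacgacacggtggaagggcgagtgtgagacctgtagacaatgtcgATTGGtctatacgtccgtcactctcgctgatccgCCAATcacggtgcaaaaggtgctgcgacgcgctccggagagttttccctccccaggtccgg
Tnrc6c: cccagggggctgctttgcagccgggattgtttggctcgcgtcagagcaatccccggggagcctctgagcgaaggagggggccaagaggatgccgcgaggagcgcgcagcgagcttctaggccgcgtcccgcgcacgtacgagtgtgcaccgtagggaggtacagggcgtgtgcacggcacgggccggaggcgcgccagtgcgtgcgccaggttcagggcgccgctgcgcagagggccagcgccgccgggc

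The 3 windows share no motif of those searched on both strands. The core of the interferon-stimulated response element, searched as GAAANNGAAA, was in 0 of the 12 windows, in 13 of 38 windows of the interferon list and in 2.98% of all 32851 windows of that length. CCAAT boxes were in 5 of the 12 windows and in 33.8% of all windows. Drosha had 3 of them, starting at -147, -95 and -61 from the transcription start, and Mov10 and Tnrc6c had none. The GC box GGGCGG was in the windows of Dicer1, Ago1, Ago3, Ago4 and Tnrc6b, in 6 of the 12, and in 32.7% of all windows, but in none of the 3 printed. GC content ran from 56% for the printed Mov10 window to 66.4% for Drosha and 72.4% for Tnrc6c, against a median of 52.4% over all windows. A match is a description of letters in this window, and a missing one says nothing about elements elsewhere.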

How the data were processed

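Total RNA of sorted CD4 T cells was amplified, biotin-labelled and hybridised to 1-colour arrays, per the labels' protocols. The authors deposited 1 table of log2 values (base 2 is assumed, since no source states it) of 28815 rows by 6 arrays with 0 missing values; MAS5 is named in the submitters' processing notes without a version or role. Scaling between arrays was not given in the sources used here. Each row was found centred on its median (largest absolute row median 5e-07), and array medians lay between -0.0088 and 0.0063. The number of arrays limits the precision.

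Rows were named from GEO's platform annotation: 21780 had 1 symbol, of which 21689 matched the RefSeq table (GRCm38.p6) by gene ID, while 1605 with several and 5430 unnamed rows were left out. Rows of a gene were averaged, without a filter on low values. Dicer KO was compared with Dicer WT by limma 3.58.1 (lmFit, eBayes) in R 4.3.3 and tested on simulated data; ratios of related genes were tested with scipy 1.17.1 (exact two-sided permutation). The genes and lists were chosen with earlier results of these data known. Named genes are the 10 genes, the sort markers, up to 4 called genes per list and direction (or 2 by lowest p), and the 3 nearest genes of each called one; others are marked as chosen after their values were seen. Alternatives were a replicate block, array weights, a robust prior, median centring, quantile normalization, the higher level class alone, other handling of rows and leaving out arrays.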

Additional observations from a re-analysis of the deposited data

How the results depend on the processing

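Mov10, Ago2 and Drosha were called with every other model, normalization and row handling tried and with any 1 array left out, except that Drosha was not in the higher level class; without Dicer WT 1 and Dicer WT 3, a setting chosen after seeing the data, Drosha differed by 0.42. That setting leaves 1 control array, which is assumed to vary like the Dicer KO arrays that alone supply the spread, so its lost calls say nothing about stability. Of the 10 genes, 7 were called with array weights and 6 in the replicate block fit. In these fits 12.7% and 10.3% of all genes were called. In the higher level class alone, 6 of its 7 were called, where 32.8% of the class was. With any 1 array left out, 3 to 5 of the 10 were called, against 3.66% to 8.01% of all genes. Tnrc6a was called with array weights (0.48), in the higher level class and the replicate block fit (both 0.56) and without both arrays numbered 3 (0.51). Tnrc6b was called in the same settings (0.45, 0.49, 0.49 and 0.51) and without Dicer KO 3 (0.62), and ran from 0.37 to 0.62 with 1 array left out. Ago1 was called with array weights and in the higher level class (both 0.19). Tnrc6c ran from 0.27 to 0.34 with 1 array left out and was 0.25, not called, without Dicer WT 1 and Dicer WT 3.

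Differences near 0 changed sign without being called: Dicer1 was -0.03 with array weights and -0.0036 after quantile normalization, and -0.07 to 0.08 with 1 array left out; Ago3 was -0.02 with array weights and after quantile normalization, -0.06 without Dicer WT 1 and Dicer WT 3, and -0.10 to 0.17; Ago4 ran from -0.0099 to 0.05. With 1 array left out, the shift in ratio ran from -0.13 to 0.18 for Ago3 over Ago4, 0.03 to 0.28 for Ago1 over Ago3, 0.12 to 0.23 for Ago1 over Ago4, 0.02 to 0.12 for Tnrc6a over Tnrc6b, 0.14 to 0.34 for Tnrc6a over Tnrc6c and 0.09 to 0.29 for Tnrc6b over Tnrc6c.

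Of all genes, 1741 were called, 2685 rows when each row was tested by itself (55.8% of them higher, against 68% of genes), 1047 in the higher level class (3191 genes tested), 213 without Dicer WT 1 and Dicer WT 3 and 729 to 1597 with 1 array left out, fewest without Dicer KO 2. Calls among processing partners numbered 1 with array weights, 3 in the higher level class, 3 in the replicate block fit and 1 without both arrays numbered 3. Deadenylation and decapping calls numbered 9 in the replicate block fit, 8 without both arrays numbered 3, 0 without Dicer WT 1 and Dicer WT 3 and 1 to 5 with 1 array left out. Chaperone calls were 4, in the replicate block fit, 0 without Dicer WT 1 and Dicer WT 3 and 1 to 2 with 1 array left out. Interferon calls were 14 of 15 in the higher level class and 14 to 30 with 1 array left out. The cause of these changes was not tested beyond the fewer arrays or genes that a setting leaves.

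Samples of the 2 genotypes share replicate numbers, but nothing in the labels ties equal numbers to a shared litter or day, and deviations from the group means correlated at 0.27, -0.08 and 0.30 for numbers 1, 2 and 3. For unequal numbers the correlations ran from -0.37 (Dicer WT 3 with Dicer KO 1) to 0.23 (Dicer WT 2 with Dicer KO 1). Whether samples of equal number share anything beyond the number was not tested. The replicate block raised the count of calls to 2063. A filter on low values and level-based choices need levels, which the centring removed.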
